A study of Mus musculus with 10 samples.

Results

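Keratins are the intermediate filament proteins of epithelial cells, and their genes were followed here in 10 mouse gastric tumours profiled by bulk RNA sequencing. Members were the protein-coding rows of the expression table whose symbol is Krt followed by a number and at most a letter from a to c. This gave 53 of 56748 genes in the table, which holds 21970 protein-coding genes; 1 further Krt symbol, Krt74, was not annotated as protein coding and was not counted. The members were grouped from general knowledge into 5 simple keratins, 20 keratins of stratified epithelia and 24 hair keratins, with Krt23, Krt80, Krt90 and Krt222 left unplaced. By filament type 28 were type I and 25 type II, and 27 lay on chromosome 11 and 26 on chromosome 15.

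The tumours were 5 of an inflamed type and 5 of a desert type, with 1 library each from stomach. Inflamed tumours came from mice of genotype Tff1-CreERT2;Apcfl/fl;Trp53fl/fl, in which the Tff1 promoter, active in surface mucous cells of the stomach, drives an inducible Cre recombinase that can remove the floxed parts of both tumour suppressor genes. Desert tumours were grown as orthotopic allografts, and their genotype label reads "Wild type". The labels do not say whether that label refers to the host or the graft, which alterations the graft carried, or the strain and age of any mouse. Tumour type, model, genotype and way of making the tumour thus coincide and cannot be told apart. The protocol speaks of 6 tumours whereas 10 are listed, and all 10 were used. Nothing states that the 5 tumours of a type came from separate mice, so p-values measure the spread between these libraries.

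A keratin filament is built from equal parts of a type I and a type II chain, so an epithelial cell makes its keratins in pairs. Simple epithelia, such as the glandular lining of the stomach, use Krt8 with Krt18 and Krt19, to which Krt7 and Krt20 are added in some lineages. Stratified epithelia use Krt5 with Krt14 in basal cells and other pairs above them, Krt1 with Krt10 where the surface cornifies and Krt4 with Krt13 where it is a moist mucosa. Keratins are widely used as markers of epithelial origin in tumours, and in the mouse the stomach has both a glandular part and a squamous forestomach.

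Promoter windows are shown for Krt8, Krt18, Krt20 and Krt23, because within each of these neighbouring pairs the members had different calls: Krt8 lies 23.7 kb from Krt18 and Krt20 39.8 kb from Krt23 in the deposited table, with 0 other genes of the table between them. Each window runs from 250 bases before to 30 bases after the annotated start, 280 bases in the direction of transcription, and was taken from RefSeq on GRCm38.p6. Capitals mark matches to TATAAA on either strand. The windows are chr15:102004313-102004592 (minus strand) for Krt8, chr15:102027966-102028245 (plus strand) for Krt18, chr11:99438124-99438403 (minus strand) for Krt20 and chr11:99493091-99493370 (minus strand) for Krt23.
Krt8: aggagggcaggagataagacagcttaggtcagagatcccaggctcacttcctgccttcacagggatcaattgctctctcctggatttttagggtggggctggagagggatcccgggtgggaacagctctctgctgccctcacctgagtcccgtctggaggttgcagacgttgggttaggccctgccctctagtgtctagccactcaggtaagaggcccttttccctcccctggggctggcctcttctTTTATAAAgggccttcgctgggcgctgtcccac
Krt18: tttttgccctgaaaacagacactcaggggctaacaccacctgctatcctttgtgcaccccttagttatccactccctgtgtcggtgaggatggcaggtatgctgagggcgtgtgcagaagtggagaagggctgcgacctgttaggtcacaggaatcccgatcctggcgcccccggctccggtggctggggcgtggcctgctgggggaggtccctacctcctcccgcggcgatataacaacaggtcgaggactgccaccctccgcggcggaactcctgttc
Krt20: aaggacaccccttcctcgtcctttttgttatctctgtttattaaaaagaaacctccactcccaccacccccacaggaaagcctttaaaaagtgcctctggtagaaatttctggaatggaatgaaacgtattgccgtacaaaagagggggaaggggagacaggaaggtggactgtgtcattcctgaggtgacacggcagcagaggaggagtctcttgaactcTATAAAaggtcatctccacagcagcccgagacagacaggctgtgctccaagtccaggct
Krt23: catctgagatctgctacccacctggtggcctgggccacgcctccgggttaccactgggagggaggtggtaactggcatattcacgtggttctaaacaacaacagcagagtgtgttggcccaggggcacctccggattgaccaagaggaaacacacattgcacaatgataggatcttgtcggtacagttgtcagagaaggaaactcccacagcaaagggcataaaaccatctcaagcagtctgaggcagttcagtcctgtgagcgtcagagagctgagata

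In the Krt8 window a TATAAA match began 1 base before the start and ran past it, overlapping a match on the other strand, and in the Krt20 window a match began 29 bases before the start. Searching 37 windows of 36 keratin genes on both strands, TATAAA was found in 19 (51.4%), against 13.1% of 32851 windows of all genes. TGANTCA was found in 2 keratin windows (5.41%), both of Krt13, against 7.46% of all windows. GGGCGG was found in 2 keratin windows (5.41%), those of Krt7 and Krt75, against 34.7% of all windows. These matches are letters in a window and not measured binding sites.

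Libraries held 15474313 to 15975770 reads in genes in inflamed tumours and 14148147 to 16951640 in desert tumours, so the groups overlapped in depth. Mitochondrial genes took 2.02% to 3.70% of the reads in inflamed tumours, most in tumour 4, against 1.38% to 1.76% in desert tumours, without overlap, and the part of this in the keratin differences was not tested. Expression was deposited as FPKM, reads scaled by gene length and library size, which allows levels of different genes to be set side by side. The sum of FPKM over all genes was 280795.3 to 356133.5 in inflamed tumours and 236900.7 to 269525.4 in desert tumours, without overlap. Over the 16750 tested genes, pairs of inflamed tumours correlated at 0.926 to 0.975 (Pearson), pairs of desert tumours at 0.952 to 0.976 and mixed pairs at 0.701 to 0.765. Epithelial genes were present in both types, with summed FPKM of 8 pan-epithelial genes at 796 to 1013 in inflamed tumours and 506 to 756 in desert tumours. Against the stomach label, 10 gastric gland genes summed to 8112 to 42212 FPKM in inflamed tumours but to 25.3 to 56.2 FPKM in desert tumours.

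Of the 53 keratins, 22 had a mean of at least 0.5 FPKM over the 10 tumours and were tested. They comprised all 5 simple keratins, 13 stratified, 2 hair and 2 unplaced members. Each was compared as the mean of log2(FPKM + 1), inflamed minus desert, with limma over all 16750 genes that passed the same minimum; this scale understates the change of low genes. At an adjusted p under 0.05, 8 keratins were higher and 3 lower in inflamed tumours and 11 were not called. Over all genes tested, 62.2% were called (31% higher and 31.2% lower), so a share of 11 in 22 is below the background when 1 is added to FPKM. This was not kept with smaller added values. With 0.1 added, 12 keratins were higher and 3 lower of 22, against 5236 higher and 5247 lower of 16750 genes. With 0.01 added, 14 were higher and 3 lower, against 5208 higher and 5219 lower of all genes. The median difference was 0.94 for the 22 keratins and -0.0072 for all genes, and 0.89 for the keratins with the 4 genes that had no desert reads set at the limit that 3 reads per library allow. Without overlap between the groups, 12 of the 53 members lay above and 5 below in inflamed tumours, which is 32.1% of all members. Among the 22 tested members 12 lay above and 3 below (68.2%), against 48.9% of all tested genes (24.4% above and 24.4% below). A low gene can pass the minimum through its high group alone, and without inflamed tumour 4 only 15 keratins passed it. No more is therefore read from the share of tested members, or from the medians given here and for the lists below.

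**Figure D1:**
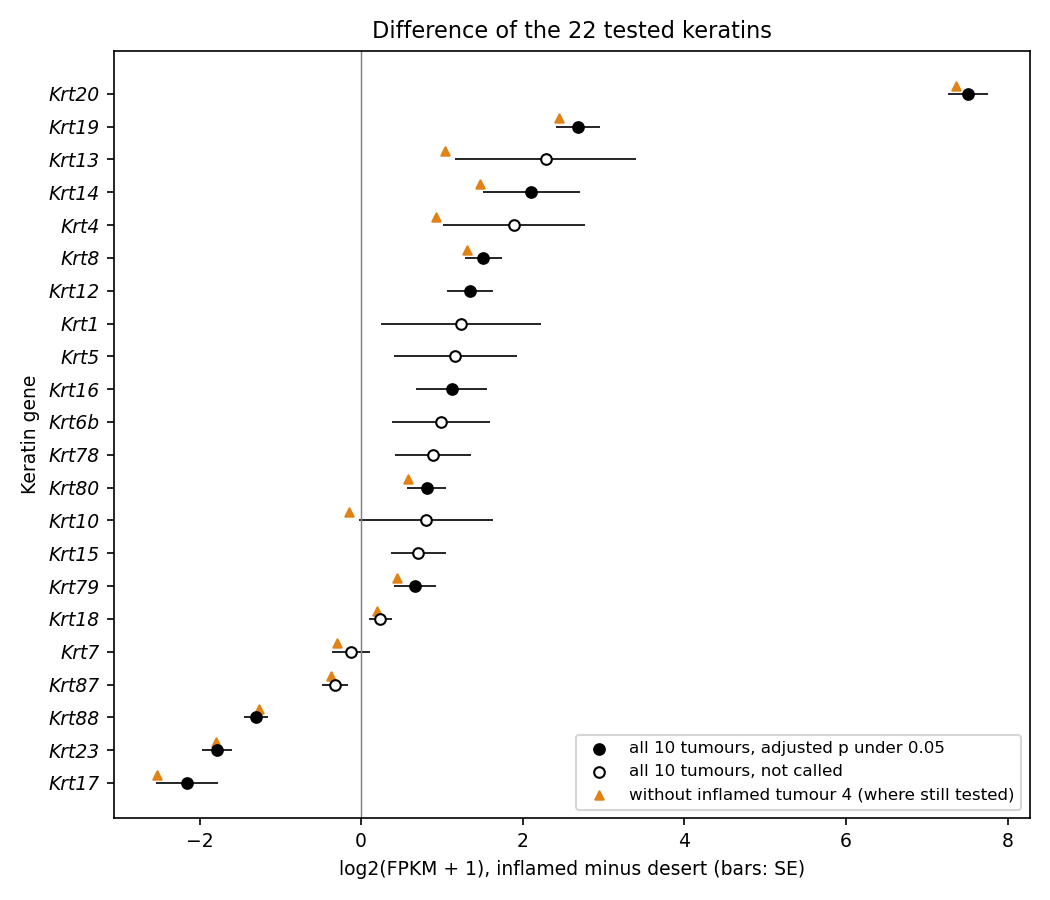
Difference in mean log2(FPKM + 1), inflamed minus desert, for the 22 tested keratins (points, with SE bars; filled where the limma adjusted p was under 0.05), and the same fit without inflamed tumour 4 (triangles). Krt20 stands far to the right at 7.51, Krt17 and Krt23 lie furthest to the left at -2.16 and -1.78, and for Krt13, Krt10 and Krt4 the triangle lies well to the left of the point.

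The simple keratins carried most of the keratin signal and differed from each other in how they moved: 3 were called higher in inflamed tumours and 2 were not called (median difference 1.51). The called share was 60.0%, all higher, against 62.2% of all tested genes called and 31% called higher. Krt8 (ENSMUSG00000049382, chromosome 15, 101905133 to 101912917 in the deposited table), the type II chain found in every simple epithelium, had 1068, 1108, 1195, 2542 and 1799.6 FPKM in inflamed tumours 1 to 5, against 568, 469.9, 484, 475 and 554 FPKM in desert tumours 1 to 5. All inflamed tumours were above all desert tumours, and inflamed tumour 4 was highest. The means were 1543 ± 633 FPKM in inflamed tumours against 510.2 ± 46.6 FPKM in desert tumours (SD, n = 5 each), a log2 difference of 1.51 (SE 0.23, limma adjusted p = 0.000167). A lncRNA on the other strand, Gm36026, overlaps Krt8 and reached 0.519 FPKM in inflamed tumours against 0.671 FPKM in desert tumours. In bulk tumour RNA, fewer cells of a type and less RNA per cell cannot be told apart.

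Krt18 (ENSMUSG00000023043, chromosome 15, 101936615 to 101940462), the type I partner of Krt8, had 771, 714, 674, 835 and 737 FPKM in inflamed tumours 1 to 5, against 867.6, 622, 576, 501 and 647 FPKM in desert tumours 1 to 5. The ranges overlapped, since desert tumour 1 was the highest of all 10. The means were 746 ± 60.9 FPKM in inflamed tumours against 643 ± 137 FPKM in desert tumours (SD, n = 5 each), and the difference of 0.24 was not called (SE 0.14, limma adjusted p = 0.168). Its direction depended on the scaling: quantile normalization gave -0.44 (limma adjusted p = 0.0033) and rescaling to equal totals gave -0.06, while without desert tumour 1 it was 0.35 (limma adjusted p = 0.0189).

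Krt19 (ENSMUSG00000020911, chromosome 11, 100031636 to 100039491), the shortest type I keratin and a marker of ductal and glandular cells, had 796, 766, 1001, 2216 and 1485 FPKM in inflamed tumours 1 to 5, against 196, 190.5, 155, 155 and 200.3 FPKM in desert tumours 1 to 5. Every inflamed tumour was above every desert tumour. It averaged 1253 ± 611 FPKM in inflamed tumours against 179 ± 22.7 FPKM in desert tumours (SD, n = 5 each), 6.99 times as much by the means, with a log2 difference of 2.68 (SE 0.27, limma adjusted p = 9.10e-06). Krt19 and Krt20 were the keratins still called higher when the test asked for more than a 2-fold difference.

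Krt20 (ENSMUSG00000035775, chromosome 11, 99319229 to 99328976), a type I keratin of gastric surface and intestinal epithelium, had 116, 156, 203, 308 and 298 FPKM in inflamed tumours 1 to 5, against 0.304, 0.0611, 0, 0.164 and 0.0547 FPKM in desert tumours 1 to 5. Those desert values correspond to 9, 2, 0, 6 and 2 reads, so Krt20 was close to undetected in the allografts while the inflamed libraries held 3935 to 9402 of its reads. Its log2 difference of 7.51 (SE 0.25, limma adjusted p = 2.69e-09) was the largest among the 22 tested keratins. With each tumour left out in turn it ran from 7.36 to 7.71.

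Krt7 (ENSMUSG00000023039, chromosome 15, 101308924 to 101328194), a type II keratin of ductal epithelia, had 57.2, 49.8, 55.1, 113 and 85.5 FPKM in inflamed tumours 1 to 5, against 93.3, 68.7, 69.3, 56.4 and 93.4 FPKM in desert tumours 1 to 5. The ranges overlapped, and the difference of -0.12 was not called (SE 0.23, limma adjusted p = 0.671). A lncRNA on the other strand, Gm671, overlaps Krt7 and reached 3.13 FPKM in inflamed tumours against 7.13 FPKM in desert tumours; the sources used here do not give whether counting kept the strand, and reads of the overlap cannot be assigned.

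Krt23 (ENSMUSG00000006777, chromosome 11, 99368800 to 99383963), a type I keratin whose place in filaments is less well known, was the abundant keratin that went the other way. It had 170.2, 174, 111, 157 and 160.4 FPKM in inflamed tumours 1 to 5, against 427, 406, 616, 509 and 745 FPKM in desert tumours 1 to 5. Each inflamed tumour was below each desert tumour, and the lowest inflamed value was that of tumour 3. The means of 154 ± 25.2 FPKM in inflamed tumours against 541 ± 141 FPKM in desert tumours (SD, n = 5 each) gave a log2 difference of -1.78 (SE 0.19, limma adjusted p = 1.14e-05), and Krt23 was the keratin still called lower when more than a 2-fold difference was asked for.

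**Figure D2:**
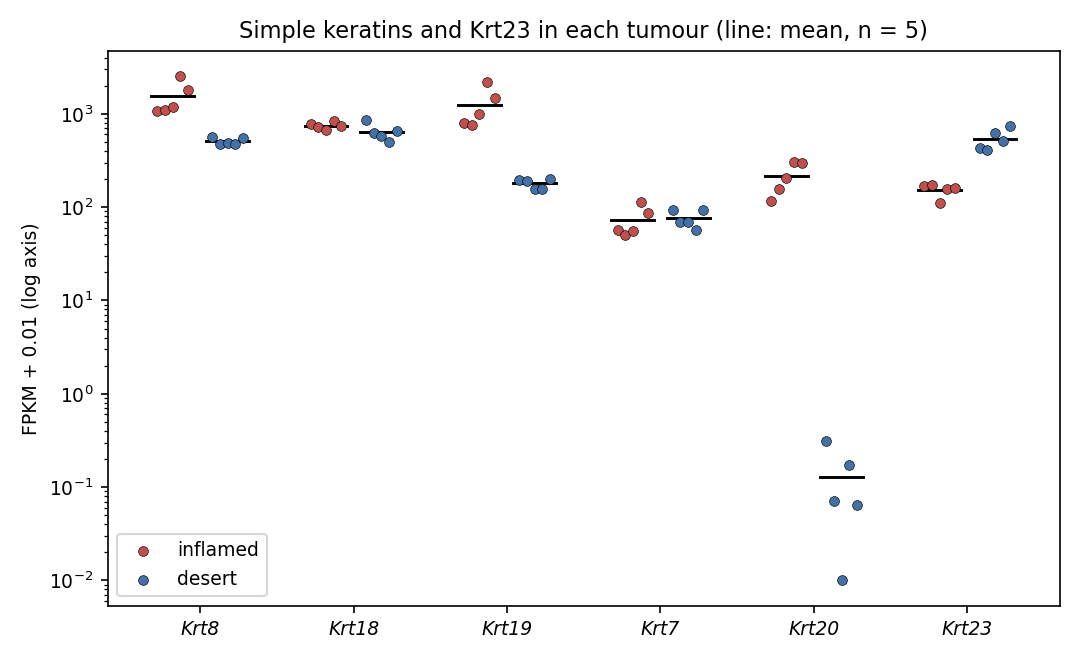
FPKM plus 0.01 on a log axis of the 5 simple keratins and Krt23 in each tumour (points; inflamed left and desert right of each gene; line, mean of 5). Krt8, Krt19 and Krt20 are higher in the inflamed tumours without overlap, Krt18 and Krt7 overlap, and Krt23 is lower in the inflamed tumours, at 111 to 174 FPKM against 406 to 745 FPKM in desert tumours.

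The order of the keratins within a tumour therefore differed between the types. In each of the 5 inflamed tumours Krt8 was the most abundant keratin, Krt19 the next and Krt18 after it. In desert tumours Krt18, Krt23 and Krt8 averaged 643 ± 137, 541 ± 141 and 510.2 ± 46.6 FPKM (SD, n = 5), which overlap: Krt18 led in tumours 1 and 2 and Krt23 in tumours 3, 4 and 5. Krt19 was below these in every desert tumour, Krt7 below Krt19, and Krt20 near 0.

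The summed FPKM of the 53 keratins was 2992, 2981, 3259, 6613 and 4583 in inflamed tumours 1 to 5, against 2168, 1777, 1915, 1722 and 2257 in desert tumours 1 to 5. This was 1.04% to 1.86% of all FPKM in inflamed tumours and 0.727% to 0.904% in desert tumours. Simple keratins made up 91.0% to 96.1% of the keratin sum in inflamed tumours and 66.2% to 79.6% in desert tumours, where Krt23 took most of the rest. Krt23 held 2.37% to 5.83% of it in inflamed tumours against 19.7% to 33.0% in desert tumours. Krt19 held 25.7% to 33.5% in inflamed tumours against 8.07% to 10.7% in desert tumours, and Krt18 12.6% to 25.8% in inflamed tumours against 28.6% to 40.0% in desert tumours. Type I exceeded type II transcripts in every tumour, by a ratio of 1.34 to 1.64 in inflamed tumours against 2.19 to 2.45 in desert tumours. Shares of a sum move together, so a rise of a member lowers the shares of the others.

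**Figure D3:**
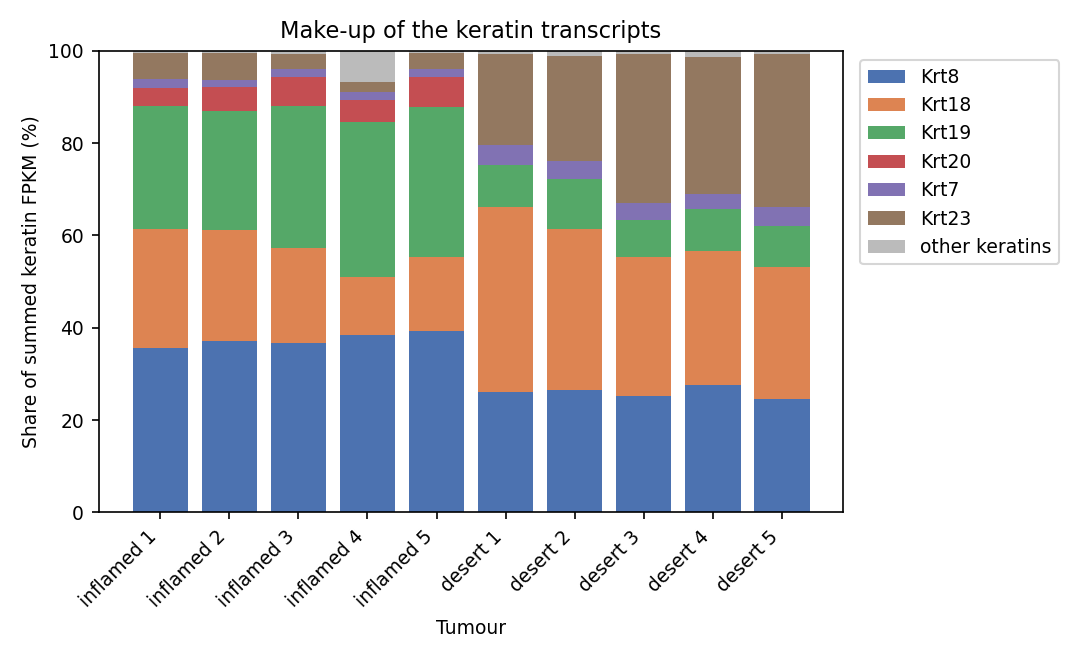
Share of the summed keratin FPKM in each tumour (percent; inflamed tumours left, desert tumours right) held by 6 keratins and by all others. Krt8 and Krt19 take larger shares in the inflamed tumours, and Krt18 and Krt23 larger shares in the desert tumours, where Krt20 is not visible.

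Ratios within a tumour do not depend on how libraries were scaled against each other. The ratio of Krt8 to its partner Krt18 was 1.39, 1.55, 1.77, 3.04 and 2.44 in inflamed tumours 1 to 5, against 0.654, 0.755, 0.842, 0.949 and 0.856 in desert tumours 1 to 5. All inflamed tumours were thus above 1 and all desert tumours below it. The difference in mean log2 ratio was 1.28 (exact two-sided permutation test, p = 0.00794, the smallest that 5 against 5 allows, and 0.00952 adjusted over the 6 ratios computed). The ratio of Krt19 to Krt18 ran from 1.03 to 2.65 in inflamed tumours and from 0.226 to 0.310 in desert tumours, a difference in mean log2 ratio of 2.45 with the same exact p. The ratio of Krt7 to Krt8 ran from 0.0446 to 0.0536 in inflamed tumours and from 0.119 to 0.169 in desert tumours, a difference of -1.64 with the same exact p.

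Krt8, Krt18 and Krt19 were also divided by Epcam, an adhesion molecule of epithelial cells, which averaged 368 ± 35.6 FPKM in inflamed tumours against 305 ± 77.3 FPKM in desert tumours (SD, n = 5 each; log2 difference 0.30, SE 0.16, limma adjusted p = 0.124). Krt8 relative to Epcam ran from 2.64 to 7.46 in inflamed tumours and from 1.32 to 2.11 in desert tumours, a difference of 1.21 in mean log2 ratio, and Krt19 relative to Epcam ran from 1.83 to 6.50 in inflamed tumours and from 0.456 to 0.728 in desert tumours, a difference of 2.39; both had the smallest exact permutation p, 0.00794 (0.00952 adjusted over 6). Krt18 relative to Epcam overlapped, from 1.70 to 2.45 in inflamed tumours and from 1.96 to 2.35 in desert tumours (difference -0.06, exact two-sided permutation p = 0.548). The Epcam difference itself passed without desert tumour 1 (0.43, limma adjusted p = 0.0107). All 5 pan-epithelial genes that limma called, among them the adhesion molecule Cdh1 (1.03), were higher in inflamed tumours, and their part in the keratin differences was not tested.

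**Figure D4:**
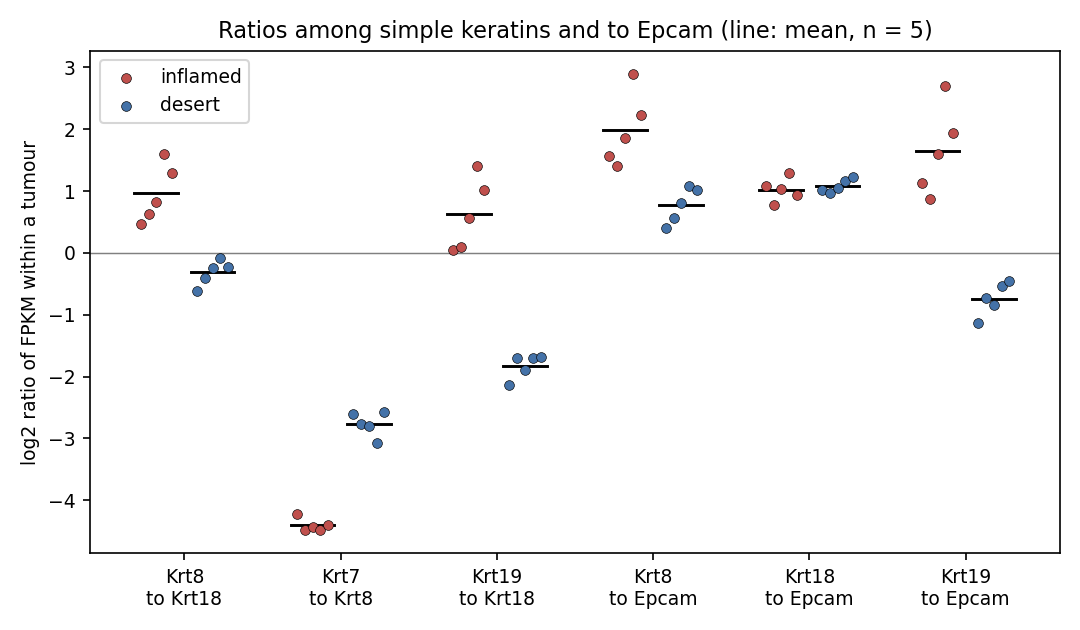
Log2 ratio of FPKM within each tumour for 3 keratin pairs and for 3 keratins relative to Epcam (points; inflamed left and desert right; line, mean of 5). Of the 6 ratios only Krt18 to Epcam overlaps between the types, and Krt8 to Krt18 lies above 0 in all inflamed and below 0 in all desert tumours.

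Keratins of stratified epithelia were low in 9 of the 10 tumours and high in inflamed tumour 4. Their summed FPKM was 8.16, 8.21, 15.98, 433 and 13.5 in inflamed tumours 1 to 5, against 9.04, 14.2, 8.49, 16.3 and 10.6 in desert tumours 1 to 5. Of the 17 with reads in inflamed tumours, inflamed tumour 4 was highest of its type for 15, and for 7 it held at least 10 times the next inflamed value. Of the 13 tested, 4 were called higher (Krt14, Krt12, Krt16 and Krt79), 1 lower (Krt17) and 8 neither, a called share of 38.5% that is below the 62.2% of all tested genes, with a median of 1.12, or 0.97 with the members without desert reads at their limit. With a pseudocount of 0.01, which weighs low values more, Krt13, Krt15, Krt4, Krt5, Krt6b and Krt78 were called higher as well (limma adjusted p = 0.00194 to 0.0212).

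The basal pair was present mostly in that tumour. Krt5, the type II basal chain, had 0.620, 0.135, 0.0260, 24.2 and 0.195 FPKM in inflamed tumours 1 to 5, with no reads in any desert tumour (log2 difference 1.17, SE 0.76, limma adjusted p = 0.205). For a gene with no reads in a group this fitted difference depends on the pseudocount and is no bound. Krt14, its type I partner, had 1.42, 1.11, 4.65, 24.97 and 1.18 FPKM in inflamed tumours 1 to 5, against 0, 0.1004, 0, 0 and 0 FPKM in desert tumours 1 to 5. Krt14 was above every desert tumour in all inflamed tumours and was called higher both with all tumours (2.11, SE 0.60, limma adjusted p = 0.0102) and without inflamed tumour 4 (1.47, limma adjusted p = 0.000868). Krt15, another type I chain of basal cells, lay between 0.302 and 4.24 FPKM in inflamed tumours against 0.0703 to 0.209 FPKM in desert tumours and was not called (0.71, limma adjusted p = 0.0901).

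The suprabasal pairs followed the same sample pattern. Krt13, the mucosal type I chain, had 0.374, 0.554, 0.565, 154 and 4.70 FPKM in inflamed tumours 1 to 5, against 0.0358, 0.0323, 0, 0 and 0 FPKM in desert tumours 1 to 5. The groups did not overlap. With all tumours there was no call (2.29, SE 1.12, limma adjusted p = 0.0977), and without inflamed tumour 4 the difference of 1.04 was called (limma adjusted p = 0.0321). Krt4, its type II partner, had 0.639, 1.75, 2.84, 58.8 and 0.143 FPKM in inflamed tumours 1 to 5, against 0.0306, 0.166, 0.0583, 0.320 and 0 FPKM in desert tumours 1 to 5. It overlapped between the types and was likewise not called with all tumours (1.89, SE 0.88, limma adjusted p = 0.0815) but called without inflamed tumour 4 (0.93, limma adjusted p = 0.0246) or without inflamed tumour 5 (2.36, limma adjusted p = 0.0389).

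Krt1, the cornifying type II chain, had 0.0514, 0.0806, 0.0907, 56.2 and 0.0969 FPKM in inflamed tumours 1 to 5, against 0.0148, 0.0400, 0.0281, 0 and 0 FPKM in desert tumours 1 to 5. Inflamed tumour 4 held 3777 of its reads and no other tumour more than 7, and the difference was not called (1.23, limma adjusted p = 0.300). Krt10, its type I partner, had 1.21, 2.05, 1.27, 68.2 and 1.91 FPKM in inflamed tumours 1 to 5, against 2.25, 1.64, 1.91, 2.19 and 1.396 FPKM in desert tumours 1 to 5. Outside inflamed tumour 4 the types overlapped for Krt10, and the difference was 0.80 with that tumour (limma adjusted p = 0.419) and -0.15 without it (limma adjusted p = 0.405).

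Krt6b and Krt16, chains of injured and fast-dividing squamous cells, had no reads in any desert tumour. Krt16 had 0.580, 0.265, 1.06, 7.43 and 0.390 FPKM in inflamed tumours 1 to 5, at least 17.4-fold higher than desert tumours by the means when those are set at 3 reads per library, and at least 5.14-fold without inflamed tumour 4. It was called higher (1.12, SE 0.44, limma adjusted p = 0.0458), but the call was lost without inflamed tumour 3 and without any of the 5 desert tumours (limma adjusted p = 0.0699 to 0.0752), and without inflamed tumour 4 the gene fell under the minimum. Krt6b had 0.254, 0, 0.640, 12.1 and 0.137 FPKM in inflamed tumours 1 to 5, a difference that was not called (0.99, limma adjusted p = 0.175). Krt6a stayed under the minimum, at 0 to 2.61 FPKM in inflamed tumours and 0 in desert tumours. Krt6a and Krt6b, and Krt14, Krt16 and Krt17, are close copies of each other, and the sources used here do not give how the counting shared reads between them.

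Krt17, a type I chain induced by injury and found in some carcinomas, was the stratified member called lower in inflamed tumours. It had 0.512, 0.383, 1.29, 5.04 and 0.748 FPKM in inflamed tumours 1 to 5, against 5.76, 11.8, 6.37, 13.3 and 8.77 FPKM in desert tumours 1 to 5. All inflamed tumours, tumour 4 included, were below all desert tumours (log2 difference -2.16, SE 0.39, limma adjusted p = 0.000568; -2.52 without inflamed tumour 4). Krt17 made up 1.16% to 8.08% of the stratified keratin sum in inflamed tumours and 63.7% to 83.6% in desert tumours. With Krt17 left out, that sum was 7.65 to 14.7 FPKM in the inflamed tumours other than tumour 4 and 1.86 to 3.28 FPKM in desert tumours. With Krt10 left out as well it was 5.78 to 13.4 FPKM in those inflamed tumours and 0.207 to 1.03 FPKM in desert tumours.

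Among the remaining stratified members, Krt12, the type I chain of the cornea, had 1.012, 0.673, 1.27, 4.90 and 1.39 FPKM in inflamed tumours 1 to 5, with no reads in any desert tumour. It was at least 19.6-fold higher by the means with desert tumours at 3 reads per library (at least 11.5-fold without inflamed tumour 4), and was called higher (1.35, SE 0.28, limma adjusted p = 0.00170); without inflamed tumour 4 it fell under the minimum. A lncRNA on the other strand, A830036E02Rik, overlaps it and reached 1.16 FPKM in inflamed tumours against 0 FPKM in desert tumours, so reads of the overlap cannot be assigned. Krt79, in mice a chain of the hair canal, had 0.430, 0.462, 0.770, 2.72 and 1.47 FPKM in inflamed tumours 1 to 5, against 0.768, 0.248, 0.0261, 0.243 and 0.200 FPKM in desert tumours 1 to 5. Its call as higher (0.67, SE 0.26, limma adjusted p = 0.0467) was lost without inflamed tumours 3, 4 and 5 in turn, without desert tumours 2, 3, 4 and 5 in turn (limma adjusted p = 0.0569 to 0.101) and with the tumour number as a block (limma adjusted p = 0.0721). Krt78, a type II chain of stratified epithelia, lay between 0.165 and 0.480 FPKM in 4 inflamed tumours and reached 7.32 FPKM in inflamed tumour 4, against 0 to 0.0379 FPKM in desert tumours (0.89, limma adjusted p = 0.124).

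**Figure D5:**
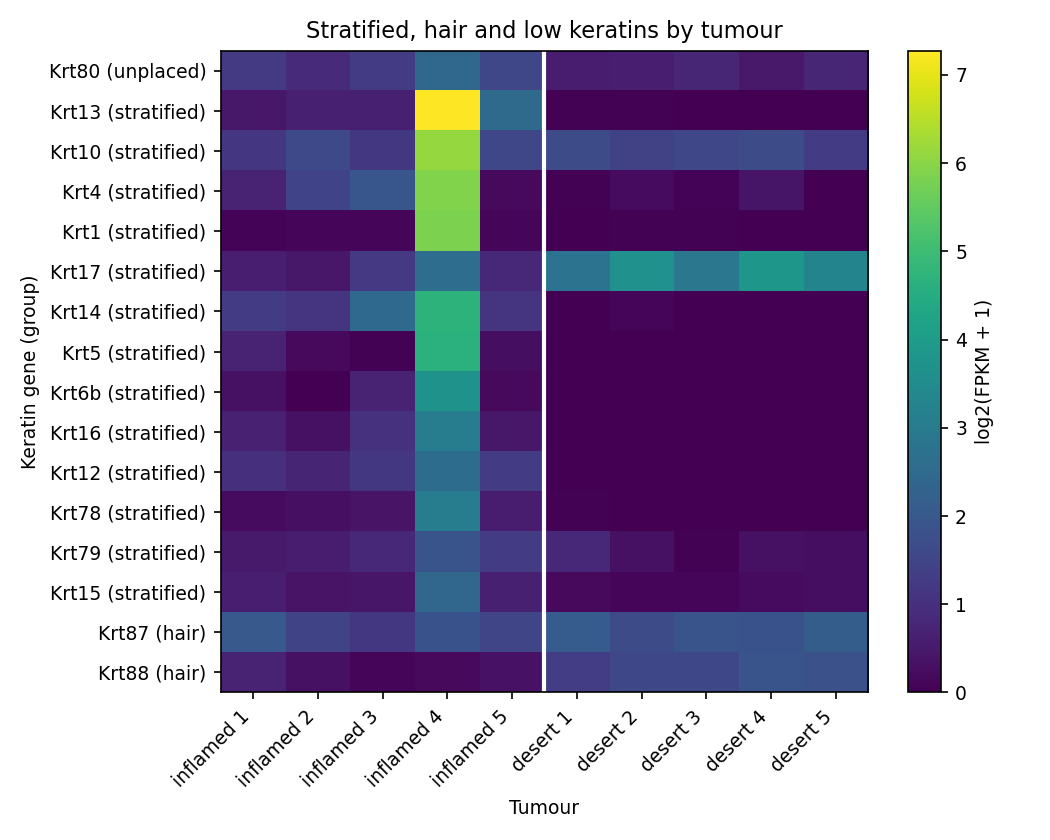
Log2(FPKM + 1) of stratified and hair keratins and Krt80 with values named in the text (rows) in each tumour (columns; inflamed tumours left of the white line, desert tumours right). The column of inflamed tumour 4 stands out for Krt13, Krt10, Krt4, Krt1, Krt14 and Krt5, while Krt17 is bright in the desert columns, at 5.76 to 13.3 FPKM.

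Most genes of the cornified envelope were high in the same tumour. The summed FPKM of 15 cornification genes was 108, 49.0, 100.4, 414 and 157 in inflamed tumours 1 to 5, against 21.5, 8.66, 13.5, 7.50 and 14.9 in desert tumours 1 to 5. Inflamed tumour 4 was highest of its type for 12 of the 15, and for 10 it held at least 10 times the next inflamed value. Involucrin (Ivl) went the other way, with an inflamed mean of 5.88 FPKM over all 5 tumours and 6.78 FPKM without tumour 4. Loricrin (Lor), a main envelope protein, was at 66.4 FPKM in inflamed tumour 4, at 0.755 to 1.38 FPKM in the other inflamed tumours and at 0 to 0.0593 FPKM in desert tumours. Trp63, the transcription factor that defines squamous epithelium, was at 0.658 FPKM in inflamed tumour 4, while every other tumour had 0.0613 FPKM or less. The part of squamous cells in the keratin values of inflamed tumour 4 was not tested. In that tumour leukocyte and fibroblast genes were lowest of the inflamed type (summed FPKM 12.8 against 23.6 to 40.6 in the other 4, and 67.8 against 109 to 198), and gastric gland genes were highest (42212 against 8112 to 18639).

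Without inflamed tumour 4, 15 keratins were tested. Krt8 (1.31), Krt19 (2.45), Krt20 (7.36), Krt14 (1.47), Krt13 (1.04), Krt4 (0.93) and Krt80 (0.57) were called higher by limma, and Krt17 (-2.52), Krt23 (-1.79) and Krt88 (-1.27) lower. Over all genes that fit called 5055 higher and 5096 lower of 16678 tested. The 15 keratins are those that still passed the minimum, so no more is read from their called share. Krt80, a type II chain of differentiating epithelia, had 1.36, 0.826, 1.39, 4.34 and 1.92 FPKM in inflamed tumours 1 to 5, against 0.4995, 0.516, 0.729, 0.411 and 0.734 FPKM in desert tumours 1 to 5, with a difference of 0.81 over all tumours (SE 0.24, limma adjusted p = 0.0133). The types did not overlap. A lncRNA on the other strand, Gm35853, overlaps Krt80 and reached 0.855 FPKM in inflamed tumours against 1.22 FPKM in desert tumours.

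Hair keratins were nearly silent in both types. Of the 24, 8 had no reads in any tumour and 14 had reads but stayed under the minimum. Krt2 and Krt24 of the stratified group also had no reads. For these 10 genes, 3 reads would correspond to 0.0430 to 0.127 FPKM, which is the level that a count of 0 allows in a library for counting error. The 2 hair members tested were Krt88 and Krt87, neighbours of Krt7 on chromosome 15.

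Krt88 had 0.629, 0.263, 0.0634, 0.146 and 0.271 FPKM in inflamed tumours 1 to 5, against 1.52, 1.96, 1.997, 2.68 and 2.51 FPKM in desert tumours 1 to 5. Each inflamed tumour was below each desert tumour, on 1 to 10 reads in inflamed and 21 to 46 reads in desert libraries (log2 difference -1.30, SE 0.15, limma adjusted p = 2.15e-05). Krt87 had 3.07, 1.82, 1.28, 2.54 and 1.88 FPKM in inflamed tumours 1 to 5, against 3.38, 2.14, 2.73, 2.58 and 3.42 FPKM in desert tumours 1 to 5. These ranges overlapped and the difference of -0.32 was not called (limma adjusted p = 0.110), although it was called lower after rescaling to equal totals (-0.53, limma adjusted p = 0.0103) and without inflamed tumour 1 (-0.42, limma adjusted p = 0.0367). In the table Krt87 lies 724 bases from Krt7.

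Among hair keratins under the minimum, 2 type I chains of the hair shaft separated the types. Krt39 had reads in inflamed tumour 1 alone of its type, at 0.0348 FPKM, and was at 0.239, 0.216, 0.609, 1.58 and 0.420 FPKM in desert tumours 1 to 5. Krt31 had no reads in inflamed tumours and was at 0.783, 0.298, 0.196, 0.233 and 0.0667 FPKM in desert tumours 1 to 5. They rested on 91 and 41 reads in all. Krt31 had 2 reads in desert tumour 5, fewer than the 3 that a count of 0 allows, so its separation there is within counting error. With no minimum on expression both were called lower in inflamed tumours (limma adjusted p = 0.0216 for Krt39 and 0.0285 for Krt31), as was Krt40 on 10 reads (limma adjusted p = 0.0359). In the same fit the hair keratin Krt83, on 31 reads, was called higher (0.15, limma adjusted p = 0.0426), at 0.0966 to 0.232 FPKM in inflamed tumours against 0 to 0.114 FPKM in desert tumours. The unplaced members under the minimum, Krt90 and Krt222, reached 1.06 and 0.140 FPKM in inflamed tumours and 0.809 and 0.128 FPKM in desert tumours and overlapped.

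Desmosomes anchor keratin filaments at cell contacts. Of 12 desmosome genes 9 were tested, and 6 were higher (66.7%), 1 lower (11.1%) and 2 not called in inflamed tumours (median 0.43), against 31% higher and 31.2% lower of all tested genes. Perp, a desmosomal membrane protein, averaged 88.3 ± 30.4 FPKM in inflamed tumours against 35.3 ± 2.25 FPKM in desert tumours (1.24, limma adjusted p = 0.000120), and the plaque protein Pkp1 7.01 ± 3.63 FPKM in inflamed tumours against 0.767 ± 0.948 FPKM in desert tumours (2.20, limma adjusted p = 0.000216). Dsg3, a cadherin of stratified epithelia, averaged 1.98 ± 0.698 FPKM in inflamed tumours against 0.0737 ± 0.0602 FPKM in desert tumours (1.44, limma adjusted p = 1.62e-05). The simple-epithelial cadherin Dsg2 went the other way, at 46.6 ± 8.17 FPKM in inflamed tumours against 65.5 ± 14.5 FPKM in desert tumours (-0.47, limma adjusted p = 0.0281), a call lost without inflamed tumours 1, 2 and 3 in turn, and without desert tumours 1, 3 and 5 in turn (limma adjusted p = 0.0522 to 0.0685).

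Filament linkers and hemidesmosome genes tie keratins to other cell parts. Of 10 such genes 9 were tested, with 5 higher (55.6%), 2 lower (22.2%) and 2 not called (median 0.32), against the same shares of all genes. The laminin receptor subunits Itga6 (59.9 ± 7.11 FPKM in inflamed tumours against 36.8 ± 5.25 FPKM in desert tumours; 0.69, limma adjusted p = 0.000321) and Itgb4 (42.2 ± 9.94 FPKM in inflamed tumours against 29.8 ± 4.502 FPKM in desert tumours; 0.47, limma adjusted p = 0.0178) were higher. Dst, a hemidesmosome plakin, was higher as well, at 3.02 ± 0.571 FPKM in inflamed tumours against 0.493 ± 0.313 FPKM in desert tumours (1.44, limma adjusted p = 1.48e-05). Epiplakin (Eppk1), a keratin-binding plakin, was lower, at 1.83 ± 0.282 FPKM in inflamed tumours against 7.52 ± 3.01 FPKM in desert tumours (-1.53, limma adjusted p = 0.000105).

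Transcription factors that act on keratin or squamous genes were mostly higher in inflamed tumours. Of 15 listed, 10 were tested and all were called, 8 higher (80.0%) and 2 lower (20.0%), with a median of 0.88, against 31% higher and 31.2% lower of all tested genes. Elf3, a factor of simple epithelia, averaged 164 ± 33.5 FPKM in inflamed tumours against 82.0 ± 25.2 FPKM in desert tumours (1.02, limma adjusted p = 0.00128), and Klf4, a factor of differentiating epithelia, 108 ± 69.3 FPKM in inflamed tumours against 23.7 ± 11.2 FPKM in desert tumours (2.09, limma adjusted p = 0.00163). Tfap2a, a factor of ectoderm and its derivatives, averaged 0.169 ± 0.0875 FPKM in inflamed tumours against 11.8 ± 4.35 FPKM in desert tumours (-3.41, SE 0.18, limma adjusted p = 6.89e-08). Its inflamed values, 0.0968 to 0.322 FPKM, lay below its desert values, 9.09 to 19.6 FPKM.

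Of the 15 cornification genes 12 were tested, with 3 higher, 1 lower and 8 not called, a called share of 33.3% that is below the 62.2% of all tested genes (median 1.02, or 0.99 with the 5 genes without desert reads at their limit). Sprr1a, an envelope precursor, ranged from 38.0 to 149 FPKM in inflamed tumours and had no reads in desert tumours, at least 441-fold higher by the means with desert tumours at 3 reads per library (6.47, limma adjusted p = 2.24e-08). Involucrin (Ivl) ranged from 2.26 to 11.04 FPKM in inflamed tumours and also had no reads in desert tumours, at least 64.6-fold higher on the same footing (2.64, limma adjusted p = 1.52e-05). Both were thus present in every inflamed tumour. Krtdap ranged from 0 to 73.2 FPKM in inflamed tumours (14.7 ± 32.7 FPKM, mean and SD), so a single tumour held nearly all of it. It reached 0.155 FPKM in desert tumours and was not called (1.25, limma adjusted p = 0.330).

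Of 8 hair follicle genes 2 were tested, and both were lower in inflamed tumours (median -1.29), against 31.2% of all tested genes. Under the minimum, Tchh, a protein of the hair root sheath, had 0.168 to 1.04 FPKM in inflamed tumours against 0 to 0.0202 FPKM in desert tumours, and the homeobox gene Msx2 0.0872 to 0.779 FPKM in inflamed tumours against 0.016 to 0.0538 FPKM in desert tumours, both above without overlap. The Wnt-pathway factor Lef1 averaged 0.748 ± 0.314 FPKM in inflamed tumours against 4.14 ± 0.539 FPKM in desert tumours (-1.57, limma adjusted p = 4.54e-06), and Padi3, an enzyme that modifies hair proteins, 0.219 ± 0.191 FPKM in inflamed tumours against 1.54 ± 0.718 FPKM in desert tumours (-1.01, limma adjusted p = 0.00238). Other intermediate filament genes were mixed, with 3 higher (33.3%), 2 lower (22.2%) and 4 not called among 9 tested of 15 (median 0.63). Their called share of 55.6% was near the 62.2% of all tested genes. Of the nuclear lamins, Lmna averaged 38.1 ± 6.14 FPKM in inflamed tumours against 17.8 ± 4.27 FPKM in desert tumours (1.07, limma adjusted p = 0.000123), and Lmnb1 24.8 ± 4.42 FPKM in inflamed tumours against 54.7 ± 7.35 FPKM in desert tumours (-1.11, limma adjusted p = 2.77e-05).

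Markers of some other cells differed between the types too. The counts of these lists stand against 31% higher and 31.2% lower of all tested genes. All 8 pan-epithelial genes were tested, with 5 higher, 0 lower and 3 not called (median 1.28), among the higher ones Cldn7, a tight junction protein (2.11, limma adjusted p = 2.99e-05). Of 10 gastric gland genes 8 were higher and 2 not called (median 5.85), and Tff2, a mucous neck cell peptide, averaged 7052 FPKM in inflamed tumours against 0.202 FPKM in desert tumours. The 4 tested of 8 intestinal genes were all higher (median 2.97), including Vil1, a microvillus protein, at 90.4 ± 22.4 FPKM in inflamed tumours against 4.17 ± 1.74 FPKM in desert tumours (4.19, limma adjusted p = 3.40e-07). Of 6 mesothelial genes 1 was tested and was higher, Msln (3.46, limma adjusted p = 7.00e-05). All 6 leukocyte genes were higher (median 1.05). Of 5 fibroblast genes 1 was higher and 4 were not called (median 0.77). Of 4 endothelial genes 2 were higher and 2 not called (median 0.51). For the fibroblast and endothelial lists the called share was thus below the 62.2% of all tested genes. The part of all these other cells in the keratin differences was not tested.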

How the data were processed

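The authors deposited a table of FPKM values, reads scaled by library size and gene length, with a column per tumour. TRIzol was used to extract total RNA, per the labels' protocols, and the build named is mm10, per the submitters' processing notes. The aligner, counter, annotation and strand setting are not given in the sources used here. Of the 53 keratins 0 shared their start with GENCODE M21 on GRCm38, although 52 had the same span and 53 the same chromosome. Gene positions are therefore those of the table, without a build; promoter windows come from RefSeq on GRCm38.p6. FPKM times gene length gave whole multiples of 1 step per library (100% of values within 0.01), from which reads and depth were recovered.

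Values were compared as log2(FPKM + 1) over the 5 inflamed and 5 desert tumours with limma 3.58.1 in R 4.3.3 (two-sided, with tumour type as the term, an intensity trend and robust moderation). Genes whose mean FPKM reached 0.5 were kept, with Benjamini-Hochberg adjustment over all 16750 genes and a threshold of 0.05. The fit was tested on simulated data. Ratios within a tumour (6) were compared by exact permutation. Genes without reads in a group were set at 3 reads per library for limits; such limits cover counting error only.

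A keratin was named with its values where its mean reached 1 FPKM in a group or any tumour reached 5 FPKM. Of each other list, up to 4 were named, namely the 2 most different called members and the 2 most abundant, with Epcam added; 1 gene so chosen is not reported here. Lor, Trp63, Krt6a, Krt31, Krt39, Krt40, Krt83, Krt90, Krt222, Tchh and Msx2 were named after their values were seen. Members and lists were chosen with earlier results of these data known. Alternatives changed the pseudocount, minimum, scaling, moderation, fold floor and weights, used recovered reads (voom), added the tumour number as a block, or left out each tumour.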

Additional observations from a re-analysis of the deposited data

Results flagged for a closer look

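In 10 of 56 sets of 5 tumours examined, a single tumour stood apart from the other 4 of its type. The measure was its gap to the nearest value relative to the whole range (Dixon's ratio above 0.71). It was taken on log2(FPKM + 1) for keratins and on log2 values for ratios. The rate of about 1 in 20 by chance holds for independent normal values. Keratins of 1 library are not independent, so the number of flags is not set against that rate. In inflamed tumours, tumour 4 stood apart as the highest for 8 keratins, all of stratified epithelia. The ratio was 0.906 for Krt10, 0.989 for Krt1, 0.857 for Krt5, 0.808 for Krt6b, 0.743 for Krt16, 0.718 for Krt12, 0.878 for Krt78 and 0.873 for Krt15. Krt1 was furthest from the rest, at 580 times the next inflamed value, followed by Krt5 at 39.0 and Krt10 at 33.3 times the next. Krt13, at 32.7 times the next, was not flagged on the log scale.

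Krt14 stood apart in desert tumours with a ratio of 1.0, since desert tumour 2, at 0.1004 FPKM on 3 reads, was the only desert tumour with reads. Krt23 stood apart in inflamed tumours with a ratio of 0.769, since inflamed tumour 3, at 111 FPKM, was below the other 4, at 157 to 174 FPKM.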

How the results depend on the processing

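Against 8 keratins called higher and 3 lower by limma, a pseudocount of 0.01 gave 14 higher and a pseudocount of 0.1 gave 12 higher. Recovered reads (voom) also gave 12 higher, among 24 tested. A mean FPKM of at least 5 gave 3 higher among 11 tested, and a fold change floor of 2 gave 2 higher and 1 lower. No filter gave 6 lower and quantile normalization 5 lower. Over all genes the counts were 2784 higher and 3070 lower at a mean FPKM of at least 5, and 1137 higher and 643 lower with the fold floor, where the higher share of calls was 63.9% against 49.9%. All other lists named above, from desmosome genes to the cell type markers, were also counted together. Of their 89 tested genes 52 were higher and 10 lower, against 31% and 31.2% of all tested genes. These became 33 and 6 of 56 at a mean FPKM of at least 5, and 19 and 2 with the fold floor. Leaving out each tumour gave 6 to 8 keratins higher and 3 to 4 lower. Quantile normalization reversed Krt18, to -0.44 (limma adjusted p = 0.0033). Rescaling to equal totals (TPM) moved the median of all genes to -0.24 (log2) and the higher share of calls to 34.6% (3710 higher, 7027 lower); the shift for quantile normalization was to -0.10. Same-numbered tumours deviated with correlations of -0.0737 to 0.0763, so the numbers do not pair them, and the replicate block gave 7 keratins higher and 3 lower. The 6 ratios kept direction and side of the threshold in all 66 alternatives run. For ratios without overlap between the types, leaving out a tumour always gives the smallest exact p again, so that outcome was fixed in advance. The difference for Krt18 to Epcam ran from -0.13 to -0.0002 with each tumour left out. Keratins under 1 FPKM rest on few reads, which limits them. The cause of these shifts was not tested.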
